A study of Mus musculus with 63 samples.

Results

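The genes described here are 9 genes of axon growth and axon regeneration: Gap43, Atf3, Sprr1a, Gadd45a, Stmn1, Stmn2, Stmn4, Basp1 and Tubb3. They were taken by symbol from the count tables, which hold 55291 symbols, and all 9 were found, each under a symbol that stands for 1 annotated gene. Their expression was measured by RNA sequencing in organotypic entorhino-hippocampal tissue cultures, slices that keep the entorhinal cortex connected to the hippocampus in vitro. Cultures came from mice of either sex, were prepared at postnatal day 3 to 5 and were kept for at least 18 days in vitro. Wildtype cultures (Synpo+/+) were C57BL/6J and synaptopodin-deficient cultures (Synpo-/-) were of the strain B6.129-Synpotm1Mndl/Dllr. In lesioned cultures the entorhinal cortex was cut off with a scalpel (entorhinal cortex lesion, ECL), which removes the perforant path input to the dentate gyrus and CA3.

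The 39 regional libraries were each made from the dissected dentate gyrus (DG) or CA3 of 1 culture. In Synpo+/+ they comprised 4 DG control, 7 DG ECL, 2 CA3 control and 3 CA3 ECL libraries. In Synpo-/- they comprised 7 DG control, 4 DG ECL, 6 CA3 control and 6 CA3 ECL libraries. The other 24 libraries belonged to a synaptopodin co-immunoprecipitation (coIP), in which an antibody against synaptopodin on protein A beads pulled RNA out of a lysate of 6 pooled cultures, and an aliquot of the same precleared lysate was sequenced as input. They comprised 5 input and 5 coIP libraries of Synpo+/+ control cultures, 5 of each of Synpo+/+ ECL cultures, and 2 of each of Synpo-/- cultures, for which the labels state no lesion state. The labels do not say whether cultures of a group came from separate animals, so p-values measure the spread between these libraries. The labels give no time between lesion and harvest. The regional ECL cultures were taken 3 days after the lesion.

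An axon that regrows needs a growth cone, and the genes of this group are known from that process. Gap43 and Basp1 encode membrane-bound proteins of the growth cone, Stmn1, Stmn2 and Stmn4 encode stathmins, which bind tubulin and destabilize microtubules, and Tubb3 encodes the beta-tubulin isoform typical of neurons. Atf3 is a stress-induced transcription factor, Sprr1a encodes a small proline-rich protein known from skin and from injured peripheral neurons, and Gadd45a encodes a stress and DNA damage response protein. In the hippocampus, an entorhinal lesion cuts axons whose cell bodies lie outside the denervated regions, and surviving fibers are known to sprout into the vacated layers.

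Library totals ranged from 14055930 to 46043990 counts in the regional libraries and from 11601154 to 53682143 counts in the coIP experiment. Values are given as CPM, the usual depth-scaled unit, here relative to the TMM-scaled total of each library. Counts of the targeted gene, Synpo, did not fall with the Synpo-/- label in the regional libraries: its level was 53.3 ± 8.87 CPM in Synpo-/- DG control (SD, n = 7) and 22 ± 2.39 CPM in Synpo+/+ DG control (SD, n = 4). In coIP its mean was lower with the label, at 28.05 CPM against 35.31 CPM in Synpo+/+ control and 36.54 CPM in Synpo+/+ ECL. In input it was 29.32 CPM against 26.3 and 27.38 CPM. All groups are therefore called by their labels. The granule cell gene Prox1 separated the regions, with 118 to 219 CPM in 21 of the 22 DG libraries and 12.6 to 44.6 CPM in CA3, but Synpo+/+ DG ECL replicate 5 held 15.7 CPM of Prox1. Summed CA3 pyramidal cell markers reached 688 CPM in the group of that library, against at most 263 CPM in Synpo+/+ DG control and 527 to 586 CPM in Synpo+/+ CA3 ECL. This library is kept in the values below under its label. Differences of the 9 genes that rest on it are given with and without it. Marker lists, lists of related genes and correlations were computed only with it. In bulk tissue, a different share of a cell type and a different amount of RNA per cell cannot be told apart.

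Per kilobase of annotated exon, the level of the 9 genes spanned more than 2 orders of magnitude. In Synpo+/+ DG control (n = 4), Stmn1 stood at 349 ± 79.7 CPM per kb (SD), Gap43 at 151 ± 45.3, Stmn2 at 74.9 ± 10.7, Basp1 at 61.0 ± 10.8 and Stmn4 at 35.2 ± 4.00. Tubb3 followed at 13.6 ± 4.18 CPM per kb, Gadd45a at 5.40 ± 0.700, Atf3 at 3.46 ± 0.729 and Sprr1a at 1.08 ± 0.458 (SD, n = 4). Of neighbours in this order, Stmn2 and Basp1 differed by less than the sum of their SDs, and each other step was larger than the SD of either gene. In the coIP experiment, Stmn4 was at 387 ± 107 CPM per kb in Synpo+/+ input control (SD, n = 5), level with Stmn1 at 381 ± 32.1, while Basp1 was at 17.2 ± 1.57. Both experiments used different material, and levels were not compared between them. Counts were made without regard to strand, and 337 bases of the Gadd45a exons (19.1%) also belong to the opposite-strand transcript E230016M11Rik, so the 2 cannot be told apart there.

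**Figure D1:**
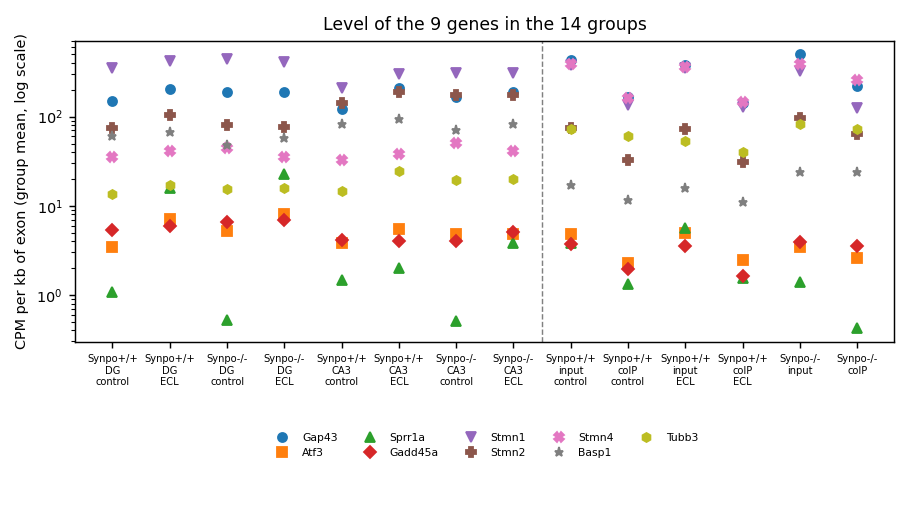
Mean level of each of the 9 genes in CPM per kilobase of exon (log axis) in the 14 groups of libraries, with the regional groups left and the coIP experiment right of the dashed line. Stmn1 leads in all regional groups, and Sprr1a is the lowest gene in the 4 regional control groups and lies above Atf3 and Gadd45a in both DG ECL groups.

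Sprr1a showed the largest lesion response of the 9 genes in DG. It lies on chromosome 3 at 92483952 to 92485895 (GRCm38, minus strand). In Synpo+/+ DG control it was at 0.322, 1.01, 1.05 and 1.11 CPM, and in Synpo+/+ DG ECL it ranged from 3.75 to 27.6 CPM with a median of 12.9. In Synpo-/- DG control it ranged from 0 to 1.24 CPM with a median of 0.301, and in Synpo-/- DG ECL it was at 30.6, 6.66, 10.2 and 24.9 CPM. In both genotypes each lesioned DG library was above each control DG library, including Synpo+/+ DG ECL replicate 5 at 6.45 CPM. The 1 library at 0 counts (Synpo-/- DG control replicate 5) allows up to 0.188 CPM, the level of 3 counts, a limit that covers counting error only.

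The fitted difference of Sprr1a upon ECL was 3.81 on the log2 scale (SE 0.506, 14-fold, edgeR adjusted p = 0.000407) in Synpo+/+ DG and 5.37 (SE 0.492, 41.3-fold, adjusted p = 7.42e-06) in Synpo-/- DG. Ordered from the largest rise in log2 difference, it ranked 6 among 23720 genes tested in the former and 2 among 23310 in the latter. Of all genes tested, 12.2% were called (adjusted p under 0.05) in Synpo+/+ DG and 8.53% in Synpo-/- DG, and 2 of the 9 genes were called in each, Sprr1a and Atf3, both higher. Without Synpo+/+ DG ECL replicate 5 the Sprr1a difference was 3.92 (SE 0.456, adjusted p = 3.84e-05).

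The RefSeq sequence upstream of Sprr1a is shown because it holds a pair of matches to the AP-1 motif, the element bound by dimers of Fos, Jun and ATF proteins, and the upstream sequence of Atf3 is shown beside it as the other gene called in DG. Both are from GRCm38.p6, minus strand, printed 5′ to 3′ and cut before the first base that lies in an annotated exon of the gene. They lie at chr3:92485896-92486131 and chr1:191183341-191183583. The Sprr1a stretch ends at the annotated start of the gene. The Atf3 stretch lies inside the annotated span of Atf3 (191170296 to 191218039), before an exon that is not its outermost. Capitals mark TGAGTCA, a form of the AP-1 motif TGANTCA searched on both strands, and the matches in Sprr1a start at positions -146 and -116 from the RefSeq start.
Sprr1a: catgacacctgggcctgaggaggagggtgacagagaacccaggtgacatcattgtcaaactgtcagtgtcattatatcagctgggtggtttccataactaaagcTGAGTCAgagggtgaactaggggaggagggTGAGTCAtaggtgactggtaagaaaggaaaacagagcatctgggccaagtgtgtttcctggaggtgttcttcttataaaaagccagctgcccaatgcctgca
Atf3: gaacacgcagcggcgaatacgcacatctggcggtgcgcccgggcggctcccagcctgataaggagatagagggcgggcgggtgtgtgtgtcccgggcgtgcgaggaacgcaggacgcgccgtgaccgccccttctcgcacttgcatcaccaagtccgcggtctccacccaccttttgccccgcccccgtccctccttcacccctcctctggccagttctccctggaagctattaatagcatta
A promoter window of 250 bases before to 50 bases after the start was at hand for 5 of the 9 genes. TGANTCA was found in the window of Sprr1a and not in those of Atf3, Gadd45a, Basp1 and Tubb3, and 7.81% of 32851 windows of this length hold it. The cAMP-response variant TTACGTCA was found in the Atf3 window at position -10, across the edge of the exon that follows the printed stretch. It is held by 0.499% of windows, while the full element TGACGTCA, held by 1.79%, was found in none of the 5. The motifs were chosen after the sequences were read, and a match is a description of letters only.

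Atf3 (chromosome 1, 191170296 to 191218039, minus strand) rose upon ECL in both DG comparisons. It was at 9.66, 7.47, 6.23 and 6.45 CPM in Synpo+/+ DG control and at 10.7 to 20.8 CPM (median 15.7) in Synpo+/+ DG ECL, with no overlap, a difference of 0.97 on the log2 scale (SE 0.170, 1.96-fold, edgeR adjusted p = 0.00277). In Synpo-/- DG it was at 7.34 to 16.4 CPM (median 11.2) in control and at 19.8, 12.8, 19.9 and 16.4 CPM upon ECL, and 1 control library lay within the range of the lesioned ones. There the difference was 0.63 (SE 0.171, 1.55-fold, adjusted p = 0.0294), and the call was lost when any 1 of 6 libraries was left out, with adjusted p from 0.0506 to 0.12. Groups that did not overlap with ECL higher were found for 8.81% of all genes tested in Synpo+/+ DG and for 3.92% in Synpo-/- DG, against 2 and 1 of the 9 genes.

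None of the other 7 genes was called in DG. Gap43 was at 322, 159, 236 and 201 CPM in Synpo+/+ DG control and at 273 to 375 CPM (median 289) upon ECL, a log2 difference of 0.36 (SE 0.151, edgeR adjusted p = 0.115) with control replicate 1 inside the lesioned range. Without that control library the log2 difference was 0.56 and was called. In Synpo-/- DG the corresponding Gap43 difference was 0.02 (SE 0.114, adjusted p = 0.965), with 221 to 330 CPM in control and 225 to 332 CPM upon ECL. Stmn4 in Synpo-/- DG was at 66.8 to 102 CPM (median 80.5) in control and 60.9, 75.6, 64.6 and 66.5 CPM upon ECL, a log2 difference of -0.32 (SE 0.101, adjusted p = 0.0588), which was called under DESeq2 (adjusted p = 0.0249). The remaining members differed by -0.10 to 0.40 on the log2 scale in both DG comparisons, and their groups overlapped. The highest of these values was that of Stmn2 in Synpo+/+ DG, and without Synpo+/+ DG ECL replicate 5 it was 0.09 in place of 0.40, and that of Tubb3 0.10 in place of 0.26. The median over the 9 genes was 0.263 in Synpo+/+ DG and 0.034 in Synpo-/- DG, beside -0.003 and 0.013 over all genes tested, and without that library it was 0.097 in Synpo+/+ DG.

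**Figure D2:**
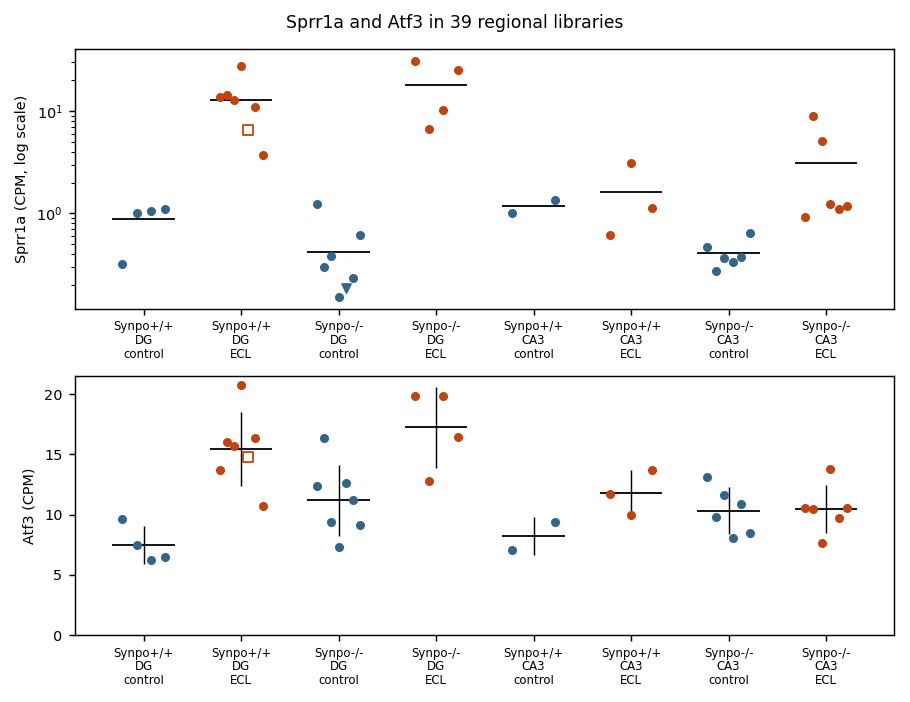
CPM of Sprr1a and Atf3 in each regional library, control in blue and ECL in red, with group means as black lines and SD as vertical lines (Sprr1a on a log axis, without SD). The open square is Synpo+/+ DG ECL replicate 5 and the triangle is the Synpo-/- DG control library with 0 Sprr1a counts, drawn at its 3-count limit of 0.188 CPM. Sprr1a points of control and ECL are apart in both DG panels.

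Markers of other cells moved with the lesion in DG. All 10 microglia markers were called higher in Synpo+/+ DG and 8 of 10 in Synpo-/- DG, and their summed level went from 435 to 620 CPM in control to 1189 to 1559 CPM upon ECL in the former and from 546 to 1326 CPM to 1199 to 1690 CPM in the latter. Of 8 astrocyte markers, 6 and 7 were called higher, with summed levels of 4170 to 5210 CPM against 7077 to 9332 CPM in Synpo+/+ DG. The 5 markers of proliferating cells were all called higher in both genotypes, and 6 of 7 immediate early genes were, with summed levels of 57.7 to 87.0 CPM against 98.7 to 337 CPM in Synpo+/+ DG and 55.6 to 72.5 CPM against 180 to 375 CPM in Synpo-/- DG. None of the 8 neuron markers was called in either direction in edgeR, and no marker of these lists was at 0. The part of these cells in the Sprr1a and Atf3 differences was not tested.

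In CA3 fewer genes were called upon ECL than in DG, in Synpo+/+ with 2 control and 3 ECL libraries against 4 and 7. The median log2 difference over the 9 genes was 0.332 in Synpo+/+ CA3 and 0.048 in Synpo-/- CA3, beside -0.01 and 0.001 over all genes. In Synpo+/+ CA3, where 1.78% of all genes were called, 1 of the 9 genes was called. This gene, Gap43, was at 176 and 198 CPM in control and 276, 314 and 367 CPM upon ECL, a log2 difference of 0.63 (SE 0.128, 1.54-fold, edgeR adjusted p = 0.0434). With 2 control libraries the call was lost when any 1 of the 5 libraries was left out (adjusted p from 0.0506 to 0.173), with RLE size factors (0.0547), with the gene length trend removed (0.078) and with all 8 regional groups in one fit (0.0854). Tubb3 went from 29.0 and 25.7 CPM to 36.8, 45.1 and 54.8 CPM, a difference of 0.59 (SE 0.165, adjusted p = 0.0832) that was called by DESeq2 (0.0206). Groups did not overlap for 5 of the 9 genes, all higher upon ECL, beside 32.1% of all genes tested in that direction.

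Sprr1a in Synpo+/+ CA3 was at 1.00 and 1.35 CPM in control and 0.620, 3.12 and 1.12 CPM upon ECL, with overlap and a log2 difference of 0.33 (SE 0.628, adjusted p = 0.779). In Synpo-/- CA3 it was at 0.271 to 0.638 CPM (median 0.375) in control and at 0.917 to 8.90 CPM (median 1.21) upon ECL, and each lesioned library was above each control library. The 2 libraries highest in Sprr1a were ECL replicates 2 and 3, at 8.90 and 5.13 CPM, and the other 4 were at 0.917 to 1.23 CPM. The log2 difference was 2.89 (SE 0.568, 7.43-fold, edgeR adjusted p = 0.0693), which did not pass the threshold, and it ranked 2 among 20772 genes from the largest rise in log2 difference. It was called by DESeq2 (adjusted p = 0.00319), without the filter on low counts (4.81e-05) and with all 8 regional groups in one fit (0.0473). In this comparison 0 of the 9 genes and 0.077% of all genes were called by edgeR. An unadjusted p under 0.05 was found for 1 of the 9 and for 7.27% of all genes. Groups did not overlap with ECL higher for 1 of the 9 and for 0.154% of all genes.

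Atf3 in CA3 was at 7.09 and 9.37 CPM against 11.7, 9.94 and 13.7 CPM in Synpo+/+ and at 8.05 to 13.1 CPM against 7.67 to 13.8 CPM in Synpo-/-, with log2 differences of 0.38 (SE 0.195, edgeR adjusted p = 0.267) and 0.04 (SE 0.143, adjusted p = 0.973). Of the microglia markers, 1 of 10 was called higher in Synpo+/+ CA3 and 0 of 10 in Synpo-/- CA3. In Synpo+/+ CA3, where Gap43 was called, summed microglia markers were at 473 to 830 CPM in control and 1016 to 1389 CPM upon ECL. Summed astrocyte markers were at 4555 to 5784 CPM and 6319 to 7808 CPM, and those of proliferating cells at 21.7 to 22.6 CPM and 34.9 to 54.7 CPM, with 0 of 8 and 0 of 5 called. In all 3 lists the control and ECL libraries of Synpo+/+ CA3 did not overlap. The same held for CA3 pyramidal cell markers (444 to 485 CPM and 527 to 586 CPM) and immature neuron markers (130 to 144 CPM and 174 to 179 CPM). It also held for immediate early genes (71.1 to 83.1 CPM and 91.3 to 158 CPM). The remaining lists overlapped, among them neuron markers at 5823 to 6446 CPM and 6348 to 8606 CPM. The part of these lists in the Gap43 difference was not tested. Of the immediate early genes, 0 of 7 were called in Synpo+/+ CA3 and 3 of 7 in Synpo-/- CA3, where their summed level was 36.8 to 83.1 CPM in control and 88.2 to 196 CPM upon ECL.

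**Figure D3:**
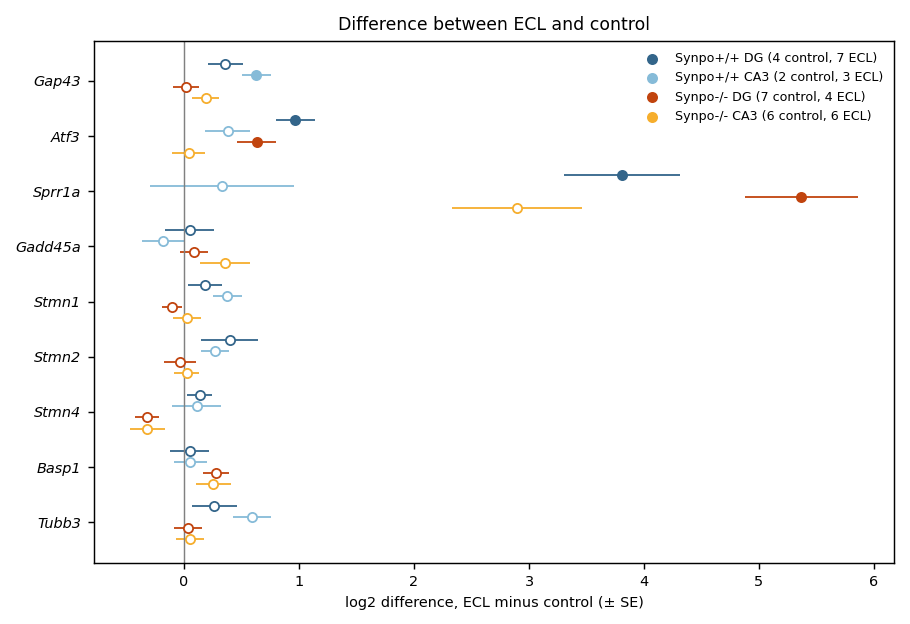
Log2 difference of ECL minus control for each of the 9 genes in the 4 regional comparisons, with bars of 1 SE, filled where called and open where not. Sprr1a and Atf3 are filled in both DG comparisons and Gap43 in Synpo+/+ CA3.

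Whether the lesion response differed between regions or genotypes was tested as an interaction. For region by lesion, the Sprr1a difference of differences (DG minus CA3) was 3.42 on the log2 scale (SE 0.910, edgeR adjusted p = 0.879) in Synpo+/+ and 2.46 (SE 0.896, adjusted p = 0.23) in Synpo-/-. Neither passed over all genes, of which 0.0% and 1.12% were called, and 0 of the 9 members were called in either. Members at an unadjusted p under 0.05 numbered 1 and 2, beside 1240 of 27783 and 2787 of 25435 genes tested. DESeq2 called 0 members in either, beside 0.0193% and 1.27% of all genes. Without Synpo+/+ DG ECL replicate 5 the Sprr1a value in Synpo+/+ was 3.54 (adjusted p = 0.254). Without Synpo-/- CA3 ECL replicate 2 the Sprr1a value in Synpo-/- was 3.17 (adjusted p = 0.0401). For genotype by lesion (Synpo-/- minus Synpo+/+), the Sprr1a value was 1.52 (SE 0.798, adjusted p = 0.48) in DG and 2.55 (SE 1.01, adjusted p = 0.214) in CA3. Of the 9 genes, 0 were called by edgeR in either region, beside 0.00381% and 0.0% of all genes. DESeq2 also called 0 of the 9, beside 0.00192% and 0.734% of all genes. At an unadjusted p under 0.05 there were 1 and 2 members, beside 10.4% and 17.1% of all genes. The comparisons of lesion, region and genotype share libraries and are not independent of each other.

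Between regions, Stmn2 and Stmn1 differed in opposite directions. Stmn2 was at 339 to 476 CPM in Synpo+/+ DG control against 782 and 801 CPM in CA3 control, and at 329 to 599 CPM against 836 to 1074 CPM in Synpo-/-, with no overlap. The log2 differences (DG minus CA3) were -0.92 (SE 0.139, edgeR adjusted p = 0.00113) in Synpo+/+ control, -1.08 (SE 0.104, adjusted p = 2.88e-07) in Synpo-/- control and -1.18 (SE 0.148, adjusted p = 8.74e-05) in Synpo-/- ECL. In Synpo+/+ ECL it was -0.82 (SE 0.262, adjusted p = 0.104), where Synpo+/+ DG ECL replicate 5 held 1250 CPM and the other 6 DG libraries 399 to 556 CPM. Without that library it was -1.13 (SE 0.106, adjusted p = 1.13e-06).

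Stmn1 was higher in DG. It was at 857, 517, 730 and 579 CPM in Synpo+/+ DG control against 361 and 452 CPM in CA3 control, and at 714 to 986 CPM against 533 to 712 CPM in Synpo-/- control, with no overlap. The log2 differences were 0.72 (SE 0.181, edgeR adjusted p = 0.0324) and 0.59 (SE 0.077, adjusted p = 9.82e-06). In ECL cultures they were 0.50 (SE 0.143, adjusted p = 0.0796) in Synpo+/+ and 0.42 (SE 0.149, adjusted p = 0.0806) in Synpo-/-. The Synpo+/+ control call was lost without either CA3 control library or without DG control replicate 1 or 3, with adjusted p from 0.0809 to 0.222.

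Basp1 was lower in DG of Synpo-/- cultures, at 72.0 to 117 CPM against 108 to 211 CPM in control (log2 difference -0.53, SE 0.137, edgeR adjusted p = 0.00721) and at 101 to 122 CPM against 130 to 217 CPM upon ECL (-0.54, SE 0.138, adjusted p = 0.0154). In Synpo+/+ the differences had the same sign, -0.42 (adjusted p = 0.207) in control and -0.46 (adjusted p = 0.161) upon ECL, and were not called. Gadd45a was at 9.68 to 14.1 CPM in Synpo-/- DG control and at 4.68 to 9.98 CPM in CA3 control, a log2 difference of 0.75 (SE 0.155, adjusted p = 0.00127). In the other 3 region comparisons the Gadd45a difference was 0.38 to 0.58 and was not called.

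Sprr1a differed between regions in lesioned cultures, by 2.99 on the log2 scale in Synpo+/+ (SE 0.581, 7.95-fold, edgeR adjusted p = 0.0301) and by 2.54 in Synpo-/- (SE 0.586, 5.84-fold, adjusted p = 0.00875). In Synpo+/+ ECL the DG and CA3 libraries did not overlap, and in Synpo-/- ECL they did. The Synpo+/+ call was lost in 9 of 10 fits that leave out 1 library, with adjusted p from 0.0502 to 0.166, and kept without replicate 5 of DG ECL (3.08, adjusted p = 0.00036). In Synpo+/+ control cultures the Sprr1a difference was -0.44 (SE 0.531, adjusted p = 0.743), and in Synpo-/- control the gene did not pass the filter on low counts. Atf3 was higher in DG of Synpo-/- ECL cultures by 0.71 (SE 0.161, adjusted p = 0.00765), with overlap, and differed by 0.43 (SE 0.171, adjusted p = 0.188) in Synpo+/+ ECL.

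Over all members, 2 of 9 were called in Synpo+/+ control, 1 of 9 in Synpo+/+ ECL, 4 of 8 tested in Synpo-/- control and 4 of 9 in Synpo-/- ECL, beside 5.39%, 2.05%, 25.5% and 13.6% of all genes tested. Without Synpo+/+ DG ECL replicate 5, 5 of 9 were called in Synpo+/+ ECL (Sprr1a, Stmn1, Stmn2, Basp1 and Tubb3), beside 19.8% of all genes. Gap43 and Stmn4 were called in none of the 4 comparisons by edgeR. Cell type markers moved with the region: 7 or 8 of 8 granule cell markers were called higher in DG, 4 of 8 neuron markers were called lower in Synpo+/+ control and 5 of 8 in both Synpo-/- comparisons, and 8 of 8 oligodendrocyte markers were called lower in Synpo-/- DG control. Summed neuron markers were at 3271 to 4316 CPM in Synpo+/+ DG control against 5823 to 6446 CPM in CA3 control, and at 3464 to 5692 CPM against 6652 to 8689 CPM in Synpo-/- control. The part of these shares in the stathmin differences was not tested.

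**Figure D4:**
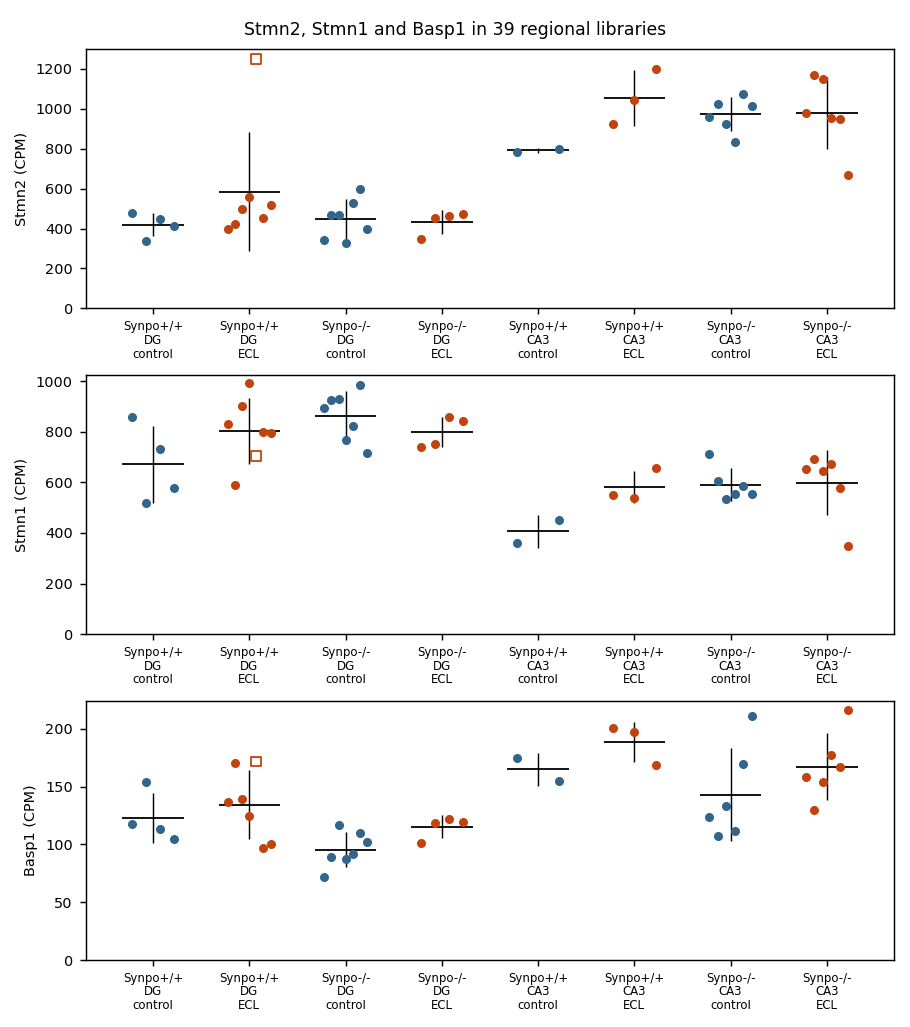
CPM of Stmn2, Stmn1 and Basp1 in DG and CA3 libraries, control in blue and ECL in red, with group means as black lines and SD as vertical lines. Stmn2 is lower and Stmn1 higher in DG, and the open square, Synpo+/+ DG ECL replicate 5, lies at 1250 CPM of Stmn2 among the CA3 values.

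Between genotypes, 0 of the 9 genes were called by edgeR in DG control, DG ECL, CA3 control or CA3 ECL, beside 0.0166%, 0.0166%, 0.00413% and 0.00891% of all genes. At an unadjusted p under 0.05 there were 4, 0, 4 and 0 members, and DESeq2 called 0, 0, 2 and 0. Over all genes tested, 15.5%, 3.56%, 16.4% and 6.16% had an unadjusted p under 0.05, and DESeq2 called 247, 12, 845 and 21 genes. The 2 called by DESeq2 in CA3 control were stathmins. Stmn4 was at 48.6 and 74.9 CPM in Synpo+/+ and at 82.6 to 114 CPM in Synpo-/-, a log2 difference of 0.58 by edgeR (SE 0.157, adjusted p = 0.128) and 0.60 by DESeq2 (adjusted p = 0.0164). Stmn1 was at 361 and 452 CPM against 533 to 712 CPM, a difference of 0.45 by edgeR (SE 0.129, adjusted p = 0.14). Groups did not overlap for 4 of the 9 genes in CA3 control, 3 of them higher in Synpo-/- and Sprr1a lower, beside 12.9% of all genes in the first direction and 6.2% in the second. Basp1 was at 72.0 to 117 CPM in Synpo-/- DG control and at 105 to 154 CPM in Synpo+/+ DG control, a difference of -0.47 (SE 0.129, adjusted p = 0.21) with overlap.

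In the coIP fraction the axon growth genes were lower than in input. The RNA of Gap43 fell from 538 to 849 CPM in Synpo+/+ input control to 215 to 281 CPM in coIP, and that of Stmn1 from 658 to 801 CPM to 207 to 313 CPM, with no overlap and log2 differences of -1.35 (SE 0.108, edgeR adjusted p = 3.96e-07) and -1.46 (SE 0.102, adjusted p = 2.35e-07). Stmn2 fell from 372 to 479 CPM to 162 to 210 CPM (-1.14, SE 0.089, adjusted p = 3.47e-07) and Stmn4 from 544 to 1088 CPM to 252 to 447 CPM (-1.22, SE 0.180, adjusted p = 5.34e-05). All 4 were thus more than 2-fold lower in coIP in control cultures, and none of their groups overlapped, but with the gene length trend removed only Stmn2 was (-1.24), with Stmn1 at -0.99, Gap43 at -0.77 and Stmn4 at -0.73. Groups did not overlap for 6 of the 9 genes, all lower in coIP, beside 20.4% of all genes tested in that direction. Of the 9 genes, 8 were called, all lower, beside 55.0% of all genes called in either direction and 25.5% called lower, and the median over the 9 was -1.14 beside 0.044 over all genes tested. Tubb3 was not called at -0.23 (SE 0.113, adjusted p = 0.0943), but was with input and coIP of one lysate as a replicate block (-0.22, adjusted p = 0.0375).

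The injury-response genes were also lower in Synpo+/+ control coIP. Atf3 went from 14.8, 11.7, 7.86, 9.86 and 8.30 CPM in input to 7.52, 4.25, 3.74, 6.25 and 3.02 CPM in coIP, replicates 1 to 5 in this order, a log2 difference of -1.02 (SE 0.241, edgeR adjusted p = 0.00234). Sprr1a went from 7.37, 2.53, 1.57, 1.60 and 2.35 CPM to 2.12, 1.40, 0.484, 0.822 and 0.503 CPM, lower in coIP in each of the 5 pairs, a difference of -1.44 (SE 0.477, adjusted p = 0.019). Input and coIP did not overlap for Atf3 and did for Sprr1a. Without input control replicate 1, at 7.37 CPM, the Sprr1a difference was -0.85 (adjusted p = 0.0819) and no longer called. Gadd45a differed by -0.88 (SE 0.241, adjusted p = 0.00652).

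In Synpo+/+ ECL cultures 9 of 9 genes were called lower in coIP, beside 58.3% of all genes in either direction and 27.8% lower. Gap43 was at 521 to 600 CPM in input and 147 to 269 CPM in coIP (-1.34, SE 0.157, edgeR adjusted p = 1.05e-05), and Sprr1a at 2.94 to 8.22 CPM and 0.511 to 2.14 CPM (-1.81, SE 0.360, adjusted p = 0.000685). Basp1 (-0.44, adjusted p = 0.0487) and Tubb3 (-0.34, adjusted p = 0.0448) were close to the threshold and their groups overlapped. Basp1 lost its call in 8 and Tubb3 in 7 of the 10 fits that leave out 1 library. For lesion by fraction, 0 of the 9 genes and 0.0% of all genes were called by edgeR, and the same held for DESeq2. An unadjusted p under 0.05 was found for 0 members and 2.22% of all genes, and the members' differences of differences were -0.33 to 0.14.

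In the libraries labelled Synpo-/-, where the antibody serves as a background control, 5 of the 9 genes were called lower in coIP, beside 31.4% of all genes in either direction and 16.4% lower. Gap43 was at 744 and 779 CPM in input and 381 and 296 CPM in coIP (-1.14, SE 0.151, edgeR adjusted p = 0.000358), and Stmn1 at 605 and 654 CPM and 253 and 224 CPM (-1.37, SE 0.137, adjusted p = 0.000183). Sprr1a differed by -1.69 (adjusted p = 0.0349), Stmn2 by -0.54 (adjusted p = 0.0185) and Stmn4 by -0.54 (adjusted p = 0.0124). Sprr1a lost its call in 3 of the 4 fits without 1 library and under DESeq2 (adjusted p = 0.0555), and Stmn2 and Stmn4 lost theirs without input replicate 2 (adjusted p = 0.186 and 0.141). Atf3, Gadd45a, Basp1 and Tubb3 were not called, at -0.39, -0.13, 0.02 and -0.16.

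The difference between genotypes in coIP against input was tested with the Synpo+/+ control libraries. Of the 9 genes, 0 were called by edgeR, beside 0.0% of all genes, and 0 by DESeq2, beside 0.16% of all genes. At an unadjusted p under 0.05 there were 3 members, beside 7.33% of all genes. Stmn4 was less reduced in Synpo-/- by 0.73 on the log2 scale (SE 0.312, adjusted p = 0.63), and with the replicate block this value was called (0.73, SE 0.124, adjusted p = 0.0249), beside 0.296% of all genes. The corresponding values were 0.65 for Stmn2 (SE 0.175, adjusted p = 0.505) and 0.61 for Basp1 (SE 0.241, adjusted p = 0.605), and 0.14 for Stmn1 and 0.27 for Gap43.

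The coIP libraries differed from input by gene length, and with the length trend removed fewer members were called: 5 in Synpo+/+ control, 6 in Synpo+/+ ECL and 3 in Synpo-/-. Over all genes, the same correction moved calls from 5389 higher and 4642 lower to 5277 and 3724 in Synpo+/+ control (18222 tested). In Synpo+/+ ECL it moved them from 5557 and 5063 to 5548 and 3836 (18229 tested). In Synpo-/- it moved them from 3138 and 3429 to 3040 and 2832 (20892 tested). Stmn2, with 5602 bases of exon the longest of the 9 genes, differed by -1.24 in Synpo+/+ control under this correction (edgeR adjusted p = 5.41e-07), and Gap43, with 1523 bases, by -0.77 (adjusted p = 7.54e-06) in place of -1.35. The adjusted p was 5.41e-07 for Stmn1 and 0.00246 for Stmn4. Sprr1a, with 806 bases of exon the shortest, was at -0.68 (adjusted p = 0.235). Tubb3 changed sign to 0.26 in Synpo+/+ control (adjusted p = 0.113) and to 0.25 in Synpo+/+ ECL (adjusted p = 0.203). The correction moved the median of all genes from 0.044 to 0.104 in Synpo+/+ control. Of the marker lists, 4 of 10 microglia markers were called lower in Synpo+/+ control coIP and 8 of 10 in ECL coIP, and 3 of 8 neuron markers were called higher and 1 lower in each.

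**Figure D5:**
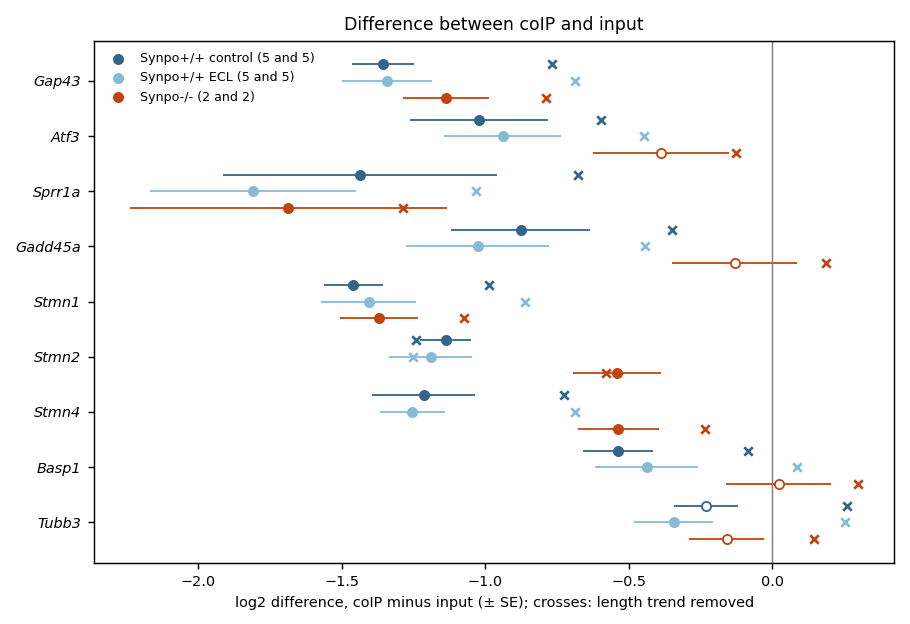
Log2 difference of coIP minus input for each of the 9 genes in Synpo+/+ control, Synpo+/+ ECL and Synpo-/-, with bars of 1 SE, filled where called and open where not, and crosses for the fit with the gene length trend removed. Gap43 and Stmn1 lie below -0.6 in all 3 comparisons under both fits, and Tubb3 crosses from below to above 0.

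In the pooled whole-culture material of the coIP experiment, Tubb3 was the 1 member called upon ECL, beside 5.61% of all genes. It was at 109, 147, 134, 137 and 160 CPM in Synpo+/+ input control and 114, 94.8, 103, 111 and 76.9 CPM in input ECL, a log2 difference of -0.47 (SE 0.121, edgeR adjusted p = 0.0372). Control replicate 1 lay within the lesioned range, and the call was lost in 7 of 10 fits that leave out 1 library (adjusted p from 0.0583 to 0.106). In coIP Tubb3 differed by -0.56 (SE 0.135, edgeR adjusted p = 0.107) and was called by DESeq2 (adjusted p = 0.0133), which called 1.01% of all genes there. By edgeR 0 of the 9 genes and 0.314% of all genes were called, and 1 member and 12.2% of all genes had an unadjusted p under 0.05. Sprr1a in input was at 1.57 to 7.37 CPM in control and 2.94 to 8.22 CPM upon ECL (0.58, SE 0.402, adjusted p = 0.479). Without input control replicate 1 that value was 1.17 and was called (adjusted p = 0.0452). Atf3 in input differed by 0.01 (SE 0.160, adjusted p = 0.988).

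Other genes of axon growth were counted in 4 lists. In Synpo+/+ DG, 6 of 17 tested injury-induced effectors and trophic genes were called higher upon ECL and 0 lower, with a list median of 0.326. Among them Arg1, an enzyme that breaks down arginine, went from 2.91 ± 0.684 CPM (SD, n = 4) to 7.14 ± 2.36 CPM (SD, n = 7), a log2 difference of 1.21 (SE 0.292, edgeR adjusted p = 0.0178). Of 12 injury-response transcription factors 3 were called higher, with Myc at 0.70 (SE 0.188, adjusted p = 0.0277), of 20 growth cone and cytoskeleton genes 1, the alpha-tubulin gene Tuba1a at 0.54 (SE 0.162, adjusted p = 0.0434), and of 12 axon growth inhibitors and receptors 1, the GTPase gene Rhoa at 0.70 (SE 0.140, adjusted p = 0.00673). Of all genes, 7.86% were called higher and the median was -0.003. The lists were not refitted without Synpo+/+ DG ECL replicate 5. Tuba1a, close to the threshold, was at 306.7 ± 38.64 CPM in control (SD, n = 4) and 470.6 ± 125.3 CPM upon ECL (SD, n = 7).

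In Synpo-/- DG, 7 of 17 effectors were called higher and 0 lower, with Arg1 at 1.34 (SE 0.226, edgeR adjusted p = 0.00155) and a list median of 0.559, beside 5.17% of all genes called higher and 3.36% lower. Of the transcription factors, 3 were called higher and 1 lower, with Myc at 0.61 (adjusted p = 0.0302) and Ddit3, a factor of the endoplasmic reticulum stress response, at -0.64 (adjusted p = 0.00834). Growth cone genes gave 1 higher, Marcksl1 (0.36, adjusted p = 0.0455), and 2 lower, with Dcx, a microtubule-binding protein of young neurons, at -0.46 (adjusted p = 0.0171). Inhibitors gave 1 higher, Rhoa (0.46, adjusted p = 0.0159), and 2 lower. In Synpo+/+ CA3, Tubb2a (0.71, adjusted p = 0.0423) and Stat3 (0.75, adjusted p = 0.0409) were the 2 list genes called, both higher, beside 1.5% of all genes called higher, and in Synpo-/- CA3 0 genes of the 4 lists were called by edgeR.

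Between regions, the growth cone list held genes called in both directions. In Synpo-/- control 5 of 20 were called higher in DG and 9 lower, and in Synpo+/+ control 3 and 4. Of all genes, 13.1% were called higher and 12.5% lower in the former and 2.63% and 2.75% in the latter. Marcksl1 was higher in DG by 1.42 (SE 0.171, edgeR adjusted p = 0.00019) and the neurofilament gene Nefl was lower, with a log2 difference of -0.90 (SE 0.122, adjusted p = 0.000517), in Synpo+/+ control. Gal, which encodes the neuropeptide galanin, was higher in DG in the same comparison by 2.61 (SE 0.377, adjusted p = 0.000817). In coIP against input of Synpo+/+ control, Stmn3, the stathmin that is not among the 9 genes, was lower by a log2 difference of -1.18 (SE 0.082, adjusted p = 2.35e-07), and 6 of the 20 growth cone genes were called higher and 5 lower, shares near the 29.6% and 25.5% of all genes, with Cntn2, a cell adhesion gene, at 0.91 (adjusted p = 0.00141). Upon ECL in Synpo+/+ input 3 growth cone genes were called lower and 0 higher, beside 3.16% of all genes called lower, with the neurofilament gene Nefm at -0.87 (SE 0.113, adjusted p = 0.000929), and Nefm was at -0.68 (adjusted p = 0.027) in coIP.

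Over the 39 regional libraries, the genes whose log2 CPM was most like that of a member were sought among 9369 genes with a mean of at least 10 CPM, for the 7 members that reach it. Stmn2 was followed most closely by Nrip3, Mapk10 and Dock9, with Pearson's r of 0.982, 0.98 and 0.98 over 39 libraries and of 0.939 to 0.967 within the 22 DG libraries and 0.826 to 0.931 within the 17 CA3 libraries. For Tubb3 the closest gene was Tubb4b, another beta-tubulin gene, with r = 0.914 over all, 0.882 within DG and 0.894 within CA3. For Atf3 it was Prdx4 (r = 0.866, 0.911 within DG, 0.737 within CA3), and the second, Sfxn1, had r = 0.946 within DG and 0.482 within CA3. Gap43 was closest to U2af1 (0.878), Stmn1 to Pkig (0.922), Stmn4 to Clk3 (0.89) and Basp1 to Tcaf1 (0.86). These values are descriptions over libraries that share regions, lesion and genotype. The 22 DG libraries include Synpo+/+ DG ECL replicate 5, at 1250 CPM of Stmn2 against 399 to 556 CPM in the rest of its group. It also held 51.7 CPM of Tubb3 against 24.7 to 36.2 CPM. Correlations were not computed without this library, so its part in the values over all libraries and within DG is not known.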

How the data were processed

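Per the labels and the study's methods, cutadapt 3.5 removed adapters, STAR 2.7.8a aligned the reads to mm10, and featureCounts 2.0.1 assigned them to exons of the GENCODE annotation, ignoring strand (GRCm38). The labels of the Synpo-/- coIP experiment name the same tools without versions. The deposited values are these raw counts, not normalized, for 55291 symbols.

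The 9 genes, the lists of related genes and the markers were chosen with earlier results of these data known. Named genes are the 9 in every comparison, of each list the called gene with the largest rise and the one with the largest fall in a comparison, and the 3 genes most like a member. One list gene that this rule names is not reported here. All genes were fitted in edgeR 4.0.16 under R 4.3.3 (TMM, filterByExpr, quasi-likelihood test), with Benjamini-Hochberg adjustment and calls at an adjusted p under 0.05, on the libraries of the groups compared. Interactions of region with lesion were added after seeing the data. CPM use TMM-scaled totals. Library totals (11601154 to 53682143 counts) set the precision, and without molecular identifiers counting limits cover counting error only. The length trend was fitted per library by lowess (span 0.3, genes with a mean count over 50). The fits were tested on simulated data. No 2 libraries of a group agreed within sampling noise (130 pairs).

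Input and coIP of one number were taken to come from one lysate. Deviations from group means correlated with r of 0.299 to 0.657 in Synpo+/+ control and 0.15 to 0.649 in Synpo+/+ ECL (5 pairs each). In the 2 Synpo-/- pairs r was 0.088, and -0.088 by the second numbering that their labels carry. With 2 libraries a group the deviations mirror each other, so these values cannot decide the pairing there. Promoter sequences are from RefSeq (GRCm38.p6), matched for 5 of 9 symbols. Alternatives were DESeq2 1.42.0, RLE size factors, no filter, a mean normalized count over 300, the length trend removed, a replicate block, all 8 regional groups in one fit and leaving out each library.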

Additional observations from a re-analysis of the deposited data

Results flagged for a closer look

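Over the 9 genes and the 10 groups of 4 to 7 libraries, 90 sets of values were screened. Of these, 7 held a library at one end whose gap to the nearest other, relative to the range, passed Dixon's 95% limit. The sets share libraries and are not independent, and the number flagged was not tested against chance. Synpo+/+ DG ECL replicate 5 was the highest of its group for Stmn2, at 1250 CPM against 399 to 556 CPM in the others, and for Tubb3, at 51.7 CPM against 24.7 to 36.2 CPM. This is the library with 15.7 CPM of Prox1. Synpo-/- CA3 ECL replicate 6 was the lowest of its group for Gap43, at 177 CPM against 279 to 332 CPM, and for Stmn1, at 349 CPM against 576 to 693 CPM. Sprr1a was highest in Synpo+/+ input control replicate 1, at 7.37 CPM against 1.57 to 2.53 CPM, and lowest in Synpo+/+ DG control replicate 1, at 0.322 CPM against 1.01 to 1.11 CPM. Gap43 was lowest in Synpo+/+ input ECL replicate 1, at 521 CPM against 583 to 600 CPM.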

How the results depend on the processing

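Counts of the 9 genes called that moved by over 1.5 times were the following. Requiring a mean normalized count over 300, which Sprr1a reached in neither DG comparison of ECL and Atf3 in Synpo-/- DG alone, gave 0 for ECL in Synpo+/+ DG, 1 in Synpo-/- DG, 0 between regions in Synpo+/+ ECL and 5 for coIP in Synpo+/+ control. DESeq2 gave 2 for ECL in Synpo+/+ CA3, 1 in Synpo-/- CA3, 3 between regions in Synpo+/+ ECL, 2 between genotypes in CA3 control and 1 for ECL in coIP. In these comparisons, in this order, DESeq2 called 3.08%, 0.131%, 2.69%, 1.69% and 1.01% of all genes. The edgeR shares were 1.78%, 0.077%, 2.05%, 0.00413% and 0.314%. RLE size factors gave 0 for ECL in Synpo+/+ CA3. No filter on low counts gave 3 for ECL in Synpo+/+ CA3, 1 in Synpo-/- CA3, 2 between regions in Synpo+/+ ECL, 1 between genotypes in CA3 control, 1 for ECL in coIP and 1 for genotype by fraction. All 8 regional groups in one fit gave 0 for ECL in Synpo+/+ CA3, 1 in Synpo-/- CA3 and 2 between regions in Synpo+/+ ECL. The length trend removed gave 0 for ECL in Synpo+/+ CA3, 2 between regions in Synpo+/+ ECL, 5 for coIP in Synpo+/+ control, 3 in Synpo-/- and 0 for ECL in input. It reversed Basp1 (0.085) and Tubb3 (0.25) for coIP in Synpo+/+ ECL. The calls over all genes moved as well. For ECL in Synpo+/+ CA3 they were 336 higher and 61 lower in the main fit. There they were 212 and 46 with RLE size factors and 57 and 39 with the length trend removed. With all 8 regional groups in one fit they were 7 and 0, and without the filter 1825 and 891. Between genotypes in CA3 control they were 1 and 0 in the main fit and 697 and 325 without the filter. Requiring a mean normalized count over 300 left 1279 and 120 for ECL in Synpo+/+ DG and 644 and 509 in Synpo-/- DG. It left 2554 and 3213 for coIP in Synpo+/+ control. Between regions in Synpo+/+ ECL they were 370 and 122 in the main fit and 193 and 91 with that limit. There they were 734 and 456 without the filter, 890 and 1146 with all 8 groups in one fit and 481 and 248 with the length trend removed. For ECL in Synpo-/- CA3 they were 11 and 5 in the main fit, 46 and 40 without the filter and 11 and 7 with all 8 groups in one fit. Without the filter they were 102 and 137 for ECL in coIP and 39 and 16 for genotype by fraction. With the length trend removed they were 498 and 589 for ECL in input. The cause of these changes was not tested.

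Outside the lysate pairs, same-numbered libraries correlated between -0.444 and 0.461 and share a number only. The replicate block gave 1 for ECL in Synpo-/- DG, 0 and 5 between regions in Synpo+/+ control and ECL, 3 and 1 between genotypes in CA3 control and ECL, 0 for ECL in input, and 1 for region by lesion in Synpo+/+. Calls over all genes moved under the block too. They were 2.84% for ECL in Synpo-/- DG, and 2.7% and 20.8% between regions in Synpo+/+ control and ECL. Between genotypes they were 9.22% and 1.35% in CA3 control and ECL. For ECL in input they were 3.75%, and for region by lesion in Synpo+/+ 0.0144%. For genotype by fraction the block gave 1 of the 9 genes, beside 0.296% of all genes. It also gave 1 by the second numbering and with the length trend removed. The block with the length trend removed gave 3 for coIP in Synpo-/- and reversed Tubb3 in Synpo+/+ control (0.27) and Tubb3 (0.24) and Basp1 (0.066) in Synpo+/+ ECL.

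Leaving out 1 library gave 2 to 3 for ECL in Synpo+/+ DG, 0 in Synpo+/+ CA3, 1 to 3 in Synpo-/- DG and 0 to 1 in Synpo-/- CA3. Between regions it gave 1 to 3 and 0 to 5 in Synpo+/+ control and ECL and 4 to 5 and 3 to 7 in Synpo-/-. For coIP it gave 8, 7 to 8 and 2 to 5, for ECL in input 0 to 2 and in coIP 0. It gave 0 between genotypes and for interactions, except 0 to 1 for region by lesion in Synpo-/-. A group left with 1 library is assumed to vary like the others.

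Over all genes, the length trend removed moved the share of calls that were higher upon ECL from 64.6% to 36.4% in Synpo+/+ DG (median -0.142), from 84.6% to 59.4% in Synpo+/+ CA3 (median -0.144), from 68.8% to 56.0% in Synpo-/- CA3, and from 78.5% to 68.3% for region by lesion in Synpo-/-. With 2 to 7 libraries a group and Sprr1a at 0 to 28 counts per Synpo-/- DG control library, small differences were not detectable at this depth.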
